A study of Mus musculus with 6 samples.

Results

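The baseline transcriptome of spinal cord microglia was described in the 3 libraries of non-transgenic mice (NTg, C57BL/6, untreated, aged 7 months), out of 6 libraries in the series. Each library held the RNA of microglia pooled from 3 spinal cords, so the libraries are separate pools of animals, named here by the numbers in their titles: replicates 7, 9 and 11. The cells were taken with beads against CD11b, a surface integrin chain of microglia and other myeloid cells, so the preparation was selected by lineage and not by a microglia-specific antigen. The other 3 libraries, from ATXN2-Q33;TDP-43 mice, were not used and no genotypes were compared. Genes were described when they had 10 or more counts in all 3 libraries: 14759 of 55401 genes met this minimum, 12108 of them among the 21897 protein coding genes. The 250 genes whose lowest count was exactly 10 had a median of 1.02 CPM, the usual depth-scaled count, and the 290 whose lowest count was 9, just outside, had a median of 0.899 CPM. No count at all was seen for 28146 genes. No test was run, since nothing was contrasted, and levels are given per library or as a mean with the standard deviation (SD) of the 3 libraries (n = 3).

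Microglia are macrophages that live within the brain and spinal cord. They depend on signalling through the receptor CSF1R, sense nucleotides, chemokines and microbial products at their surface, take up debris and synapses, and break this cargo down in lysosomes. Their identity is held by a set of transcription factors that includes PU.1, and they can turn on inflammatory genes within minutes to hours of a disturbance.

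Library totals were 12553570 counts in replicate 7, 14722639 in replicate 9 and 22854628 in replicate 11. Protein coding genes took 81.0 ± 0.831% of the counts (SD, n = 3) and mitochondrial genes 4.66% to 5.71%. The most counted gene was Gm23935, a gene model of 57 bases on chromosome 16 that the annotation types as a miRNA, with 71407 ± 9539 CPM or 6.37% to 7.92% of a library. Its sequence is printed because this single model sets the scale of any value divided by gene length.

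Gm23935, chr16:11144125-11144181, plus strand: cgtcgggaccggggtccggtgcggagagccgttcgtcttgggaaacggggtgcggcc

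The same 57 bases occur in the transcripts of 3 gene models, Gm23935, Gm24245 and Gm24270, so the locus that gave these fragments is uncertain. In TPM, where each count is divided by the gene's length and each library is rescaled to the same sum, Gm23935 took 71.9% to 74.7% of the total over all genes and protein coding genes were left with 12.3 ± 0.947%. Levels are therefore given as protein coding TPM, in which only the protein coding genes of a library share that sum. This scale was chosen after the values were seen. Ranks run over the 12108 protein coding genes at the count minimum. They follow the mean TPM over all genes, so genes of nearly equal protein coding TPM can change places.

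Protein coding genes spanned 5.71 log10 units of TPM between the lowest and the highest. The highest was Ccnb1ip1, which overlaps another gene and whose level is uncertain, so the upper end is uncertain as well. The median gene lay at 21.2 TPM, the 5th percentile at 1.70 and the 95th at 239, a 141-fold interval. A level of 100 TPM or more was reached by 1665 genes (13.8%), which held 74.1% of the TPM, and 1000 TPM or more by 137 genes, which held 37.7%. The first 50% of the TPM lay in 339 genes, 2.80% of those described. Over all gene types, the 100 most counted genes took 31.7%, 31.1% and 34.0% of the counts in replicates 7, 9 and 11. The 100 genes of highest TPM had a median length of 2146 bases against 4600 bases for all 12108, so the order by TPM differs from the order by counts.

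**Figure D1:**
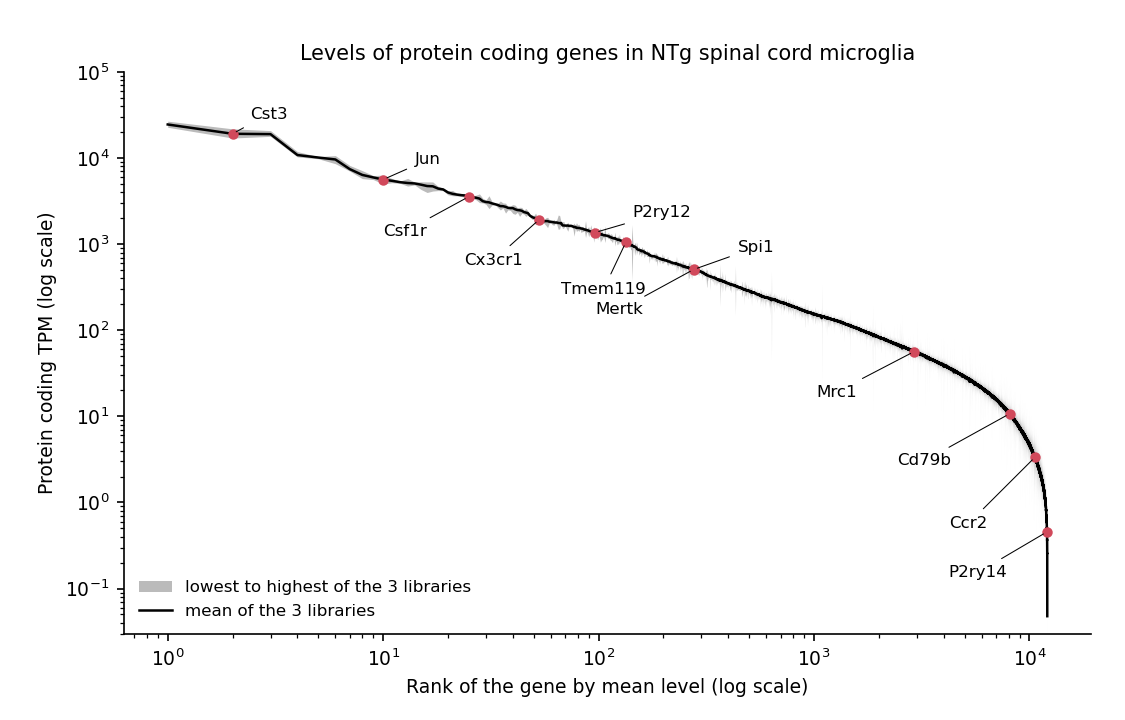
Mean protein coding TPM of each of the 12108 genes (vertical axis, log scale) against its rank (horizontal axis, log scale). The line is the mean of the 3 libraries, the grey band runs from the lowest to the highest library, and the labelled points are named genes: Cst3 has rank 2, Csf1r rank 25 and Tmem119 rank 134, while P2ry14 lies near the end of the curve at 0.456 TPM.

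Genes from the 20 highest among nuclear protein coding genes are given here with what each is known to do. Cystatin C, encoded by Cst3, a secreted inhibitor of cysteine proteases, had 18497, 17103 and 21875 TPM in replicates 7, 9 and 11. Cathepsin S, encoded by Ctss, a cysteine protease of myeloid lysosomes, had 18208, 17885 and 20853 TPM. Only Ccnb1ip1, whose level is uncertain, ranked above these 2 genes, and both were highest in replicate 11. Actb, the cytoskeletal actin, had 10151 ± 295 TPM, and Ctsd, the aspartic protease cathepsin D, had 7445 ± 661 TPM. C1qb and C1qa, 2 chains of the complement starter C1q, had 5962 ± 318 TPM and 5445 ± 314 TPM. Jun and Junb, members of the AP-1 factors, had 5632 ± 676 and 4703 ± 571 TPM. B2m, the light chain of MHC class I, had 5250.3 ± 164 TPM. Translation and iron storage were represented by Eef1a1 at 5078 ± 195 TPM, Rplp1 at 4911 ± 522 TPM and Ftl1 at 3767 ± 142 TPM. The chemokine genes Ccl3 and Ccl4, whose products attract leukocytes, had 4737 ± 675 and 3991 ± 213 TPM. Cd83, a surface glycoprotein of activated antigen-presenting cells, had 4426 ± 252 TPM. Apoe, the lipid carrier, had 4325 ± 132 TPM, and Lgmn, the asparagine-cutting protease legumain, had 3714 ± 152 TPM.

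Of the first 20, Ccnb1ip1, Gm49369 and Ctsd share exons with a neighbour in a way that bears on their level, and Ftl1 and Eef1a1 share 8.13% and 4.33% of their exon bases with Gm22133 and Gm26377. Ccnb1ip1 had rank 1 at 24574 ± 2072 TPM, but its exons overlap Rpph1, the RNA of ribonuclease P, on the same strand, and the table lets a fragment count for each gene that it overlaps. The 2 genes had nearly equal counts, 9689.9 ± 1175 CPM and 9691 ± 1175 CPM, so the level of Ccnb1ip1 is uncertain. Gm49369 had rank 4 at 10854 ± 897 TPM, and all of its exon bases lie within exons of its same-strand neighbour Ctsd. Of the bases of Ctsd, 34.4% are shared in turn, so how the fragments divide between both is uncertain.

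Outside protein coding genes, small structural RNAs and mitochondrial RNA led. After Gm23935 the highest by length-scaled level were Rn7sk, the 7SK RNA that restrains transcription elongation, at 10269 ± 1193 CPM, Rpph1, the 16S mitochondrial ribosomal RNA mt-Rnr2 at 35280.1 ± 3107 CPM, and the 70-base model Gm47305, which lies wholly within Rn7s2. By counts alone the first 5 were Gm23935, mt-Rnr2, the nuclear long RNA Malat1 at 12662 ± 1999 CPM, the 12S ribosomal RNA mt-Rnr1 at 10789.6 ± 1901 CPM, and Rn7sk. By length-scaled level the valine transfer RNA mt-Tv followed both ribosomal RNAs among mitochondrial genes, at 218 ± 19.1 CPM. The libraries had been depleted of ribosomal RNA, per the labels' protocols.

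The 4 microglial markers all lay in the first 1.11% of ranks. Csf1r (ENSMUSG00000024621, chr18:61100598-61132149), the receptor for colony stimulating factor 1 on which microglia depend, had 3556, 3386 and 3763 TPM in replicates 7, 9 and 11 and rank 25. Cx3cr1 (ENSMUSG00000052336, chr9:119901616-120069879), the fractalkine receptor, had 1859.8, 1907 and 2027 TPM and rank 53. P2ry12 (ENSMUSG00000036353, chr3:59216272-59262871), the ADP receptor that guides process extension, had 1326, 1317 and 1448 TPM and rank 96. Tmem119 (ENSMUSG00000054675, chr5:113793729-113800516), a membrane protein used to tell microglia from other macrophages, had 999.95, 982 and 1196 TPM and rank 134. Replicate 11 was the highest for each of the 4, and the coefficient of variation (CV, the SD over the mean of CPM) ran from 7.59% for Cx3cr1 to 14.8% for Tmem119. All 22 genes of a wider list of homeostatic microglia were at the count minimum and above 100 TPM, with 21 of them in the first 10% of ranks. Beside Cst3, Lgmn, Csf1r and Cx3cr1, its leading members included Sparc, a matrix protein, at 1652 ± 152 TPM.

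**Figure D2:**
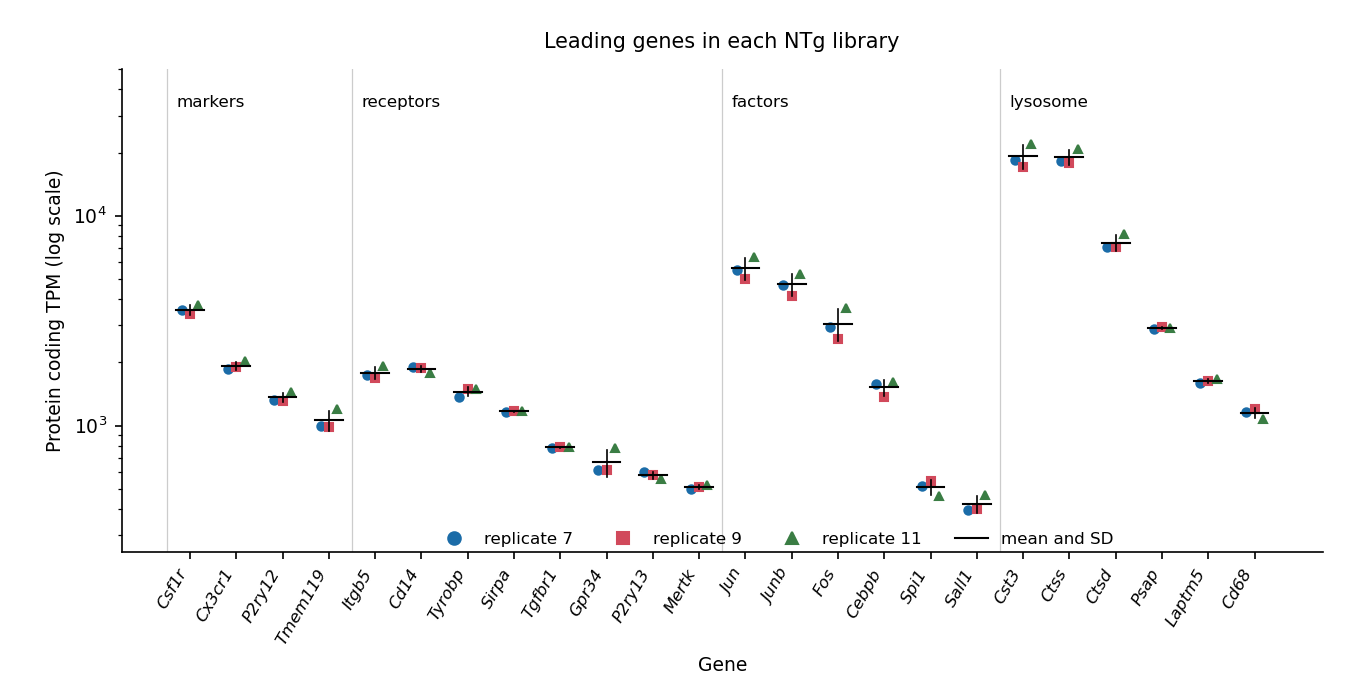
Protein coding TPM (vertical axis, log scale) of the 4 markers and of leading receptors, transcription factors and lysosomal genes in each NTg library. Points are libraries, horizontal bars means and vertical bars SDs: the 3 libraries lie close together for Sirpa and Psap, and replicate 11 is the highest for Jun, Cst3 and Ctss.

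Each marker list of other cells had a lower sum than the microglial list in every library, though S100a9 of the neutrophil list exceeded P2ry12 and Tmem119 in replicate 7, and 4 lists of glial or vascular markers were at least 2.54-fold higher in replicate 9 than in either other pool. In bulk RNA, fewer cells of a type and less RNA per cell cannot be told apart. The 4 microglial markers together had 7742, 7591 and 8433 TPM in replicates 7, 9 and 11. Against that, 10 oligodendrocyte markers summed to 159.8, 1352 and 310.4 TPM, with 7 of the 10 at the count minimum and all 7 highest in replicate 9. Mbp, myelin basic protein, had 45.5, 483 and 141 TPM. The 10 endothelial markers, all at the minimum, summed to 101, 407 and 152 TPM and all 10 were highest in replicate 9. They were led by Cldn5, a tight junction protein, at 19.3, 86.9 and 31.2 TPM, and by Flt1, a receptor for vascular endothelial growth factor, at 14.8, 53.5 and 19.6 TPM. The pericyte and smooth muscle list (6 of 8 members at the minimum) gave 49.4, 230.0 and 90.4 TPM, led by Rgs5 and Vtn. By CPM, 4 of these 6 were highest in replicate 9 and 2 in replicate 11. Precursors of oligodendrocytes gave 5.31, 45.4 and 7.36 TPM over all 6 members, of which Sox10, Cspg4 and Pdgfra were at the minimum. Olig1, the largest part of that sum, had 0.528, 18.8 and 2.40 TPM but too few counts in replicate 7 to reach the minimum, and Olig2 and Gpr17 were below it as well.

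Markers of blood cells followed another order. The 14 neutrophil markers summed to 4268, 1710.2 and 2674 TPM, with 12 at the minimum, and all 12 were highest in replicate 7 by CPM. S100a9, a subunit of the alarmin calprotectin, had 1679, 376 and 881 TPM, and Csf3r, which microglia also express, had 803, 809 and 719.9 TPM, nearly level over the libraries. Elane and Ly6g did not reach the minimum. Haemoglobin and haem synthesis genes of the erythroid list, led by Hba-a2 and Hba-a1, gave 304, 244 and 66.5 TPM, lowest in replicate 11. Monocyte markers summed to 896, 978 and 1102 TPM, of which Nr4a1, an immediate early nuclear receptor that is not particular to monocytes, made 922 ± 103 TPM. Chil3 followed at 54.1, 14.5 and 47.0 TPM. Border macrophages, the macrophages of meninges and vessels, had 154, 179.7 and 164 TPM over 9 markers, led by Mrc1 at 56.7 ± 7.28 TPM and Pf4 at 41.8 ± 4.45 TPM, with Folr2 below the minimum.

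Neuronal, astrocytic, ependymal, T and NK cell and fibroblast lists each summed to less than 100 TPM in every library. The neuronal list had 32.0, 39.7 and 29.3 TPM over 12 markers, of which 6 were at the minimum, led by Eno2 at 11.1 ± 3.75 TPM and Nefl at 7.13 ± 0.815 TPM. Chat, the enzyme that makes acetylcholine in motor neurons, had no count in any library. A count of 0 allows up to 0.239, 0.199 and 0.135 CPM in replicates 7, 9 and 11, taking 3 counts as the limit and counting error alone. Astrocyte markers had 70.5, 90.4 and 80.8 TPM, led by Slc1a3 at 37.0 ± 4.94 TPM and Aldoc at 10.5 ± 2.97 TPM, and ependymal markers 36.1, 70.7 and 49.1 TPM, led by Foxj1 and Ccdc153. T and NK cell markers gave 12.1, 20.1 and 9.04 TPM with 2 of 13 at the minimum, Gzma and Cd4. B cell markers gave 396, 418 and 351 TPM, nearly all of it from Ighm at 351 ± 39.5 TPM, while Pax5, Ms4a1 and Cd79a were below the minimum and Igkc had 22.4 ± 7.24 TPM. Fibroblast markers gave 1.86, 3.95 and 3.59 TPM and were led by Col1a1 and Col1a2. The Schwann cell list gave 774, 819 and 760.2 TPM, carried by Pmp22 and Egr2, while Prx, Ncmap and Pmp2 were below the minimum. The part of these other cells in the levels of shared genes was not tested.

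**Figure D3:**
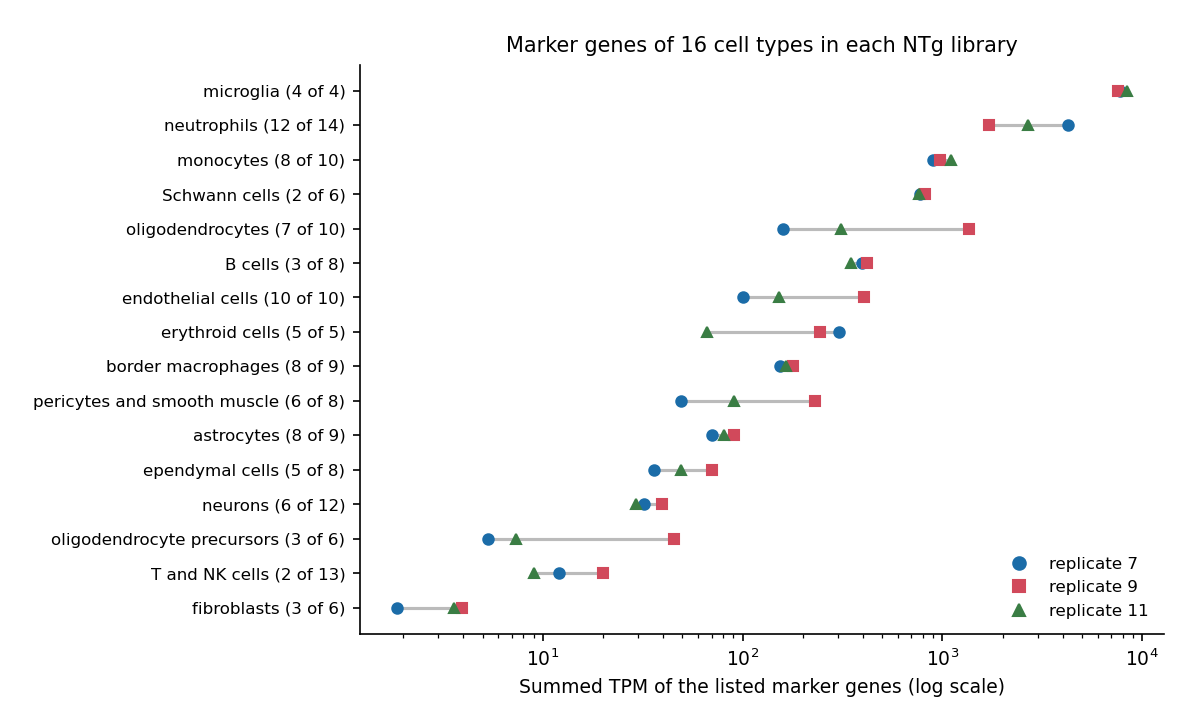
Summed protein coding TPM (horizontal axis, log scale) of the marker genes of 16 cell types in each library, with the number of markers at the count minimum in brackets. Replicate 9 stands apart for oligodendrocyte, oligodendrocyte precursor, endothelial and pericyte markers, and replicate 7 is the highest for neutrophil markers.

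Receptors formed a broad and shallow class. Of 340 listed receptors and channels, 260 were at the count minimum, 86 of them at 100 TPM or more and 64 below 10 TPM. Together they had 46214, 46559.9 and 46289 TPM in replicates 7, 9 and 11 (mean 46354 ± 182 TPM, 4.64% of the protein coding total). The sum hardly moved between pools on this scale, which was chosen after the values were seen. It moved more on the scale of all genes and without scaling by length. On the scale of all genes the same sum was 5724 ± 456 TPM. Its SD there exceeded those of the lysosomal sum (10846 ± 244 TPM) and the transcription factor sum (6230 ± 237 TPM). Without scaling by length the receptor sum was 38793, 37866 and 40002 CPM in replicates 7, 9 and 11. The 4 leading members, Csf1r, Cx3cr1, Cd14 and Itgb5, held 19.7 ± 0.765% of the sum and the leading 20 held 54.8 ± 1.89%. The median listed receptor at the minimum lay at 34.9 TPM against 21.2 TPM for all genes. Receptors signalling through Fc, ITAM or ITIM motifs held the greatest share, 23.8 ± 0.637%, followed by cytokine and growth factor receptors at 21.9 ± 0.239%.

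Among the 42 of 43 receptors with Fc, ITAM, ITIM or sialic acid binding function at the minimum, the adaptors came first. Tyrobp, the ITAM adaptor DAP12 through which TREM2 signals, had 1374, 1493 and 1492 TPM, and Fcer1g, the common gamma chain of Fc receptors, had 1330.2, 1176 and 1190.0 TPM. Fcgr3, an activating receptor for IgG, had 1193, 1106 and 1321 TPM, and Sirpa, the inhibitory receptor that recognises CD47, had 1161, 1171 and 1175 TPM. The next were Vsir, the checkpoint molecule VISTA, at 866 ± 46.8 TPM, and Fcrls at 836 ± 90.3 TPM. Sirpa had the smallest SD of the 6, and the 3 libraries of Fcgr3 overlapped with those of Fcer1g. Siglecg was the lowest member at the minimum with 1.34 ± 0.235 TPM, and Ctla4 did not reach it.

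Cytokine and growth factor receptors (54 of 68 at the minimum) were headed by Csf1r. Il10ra, a chain of the receptor for the anti-inflammatory interleukin 10, had 1011, 929.6 and 999.7 TPM, and the transforming growth factor beta receptors Tgfbr1 and Tgfbr2, which maintain microglial identity, had 788 ± 6.09 TPM and 317 ± 7.60 TPM. Csf3r and Ifngr1, receptors for granulocyte colony stimulating factor and interferon gamma, had 778 ± 49.99 and 408 ± 67.7 TPM. Ifngr1 varied most of the 6, with 413, 338 and 473 TPM. Pdgfra, a marker of oligodendrocyte precursors and fibroblasts, was the lowest member at 0.389 ± 0.0890 TPM. Among 14 members below the minimum were Egfr, Erbb2, Met, Il2ra and Lepr.

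Pattern recognition receptors were almost complete, with 34 of 35 at the minimum and Tlr11 as the exception. Cd14, the co-receptor for lipopolysaccharide, had 1901, 1876 and 1789 TPM. Nlrp3, the sensor of the NLRP3 inflammasome, had 1357, 1200.3 and 1154 TPM. Tlr2, a receptor for bacterial lipoproteins, had 601 ± 58.1 TPM, and the accessory pair Ly86 and Cd180 had 514 ± 21.2 and 226 ± 44.3 TPM. Clec7a, the beta-glucan receptor dectin-1, had 311 ± 37.5 TPM, given without a rank because the annotation does not type it as protein coding. The lowest was Nlrc4 at 1.89 ± 1.02 TPM. The median member lay at 30.3 TPM, far below Cd14 and Nlrp3.

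Receptors for purines were fewer and dominated by the ADP receptors. P2ry12 and P2ry13, both coupled to inhibitory G proteins, had 1363 ± 73.0 and 580.3 ± 22.7 TPM. P2ry6, the UDP receptor linked to phagocytosis, had 138 ± 20.4 TPM, and P2rx7, the ATP-gated channel upstream of the inflammasome, had 129 ± 2.41 TPM. The order P2ry12 above P2ry13 held in each library, whereas P2ry6 and P2rx7 overlapped, at 142, 156 and 116 TPM and 129, 132 and 127 TPM. P2ry14 was the lowest of the 10 of 19 at the minimum with 0.456 ± 0.122 TPM, and P2ry1, Adora2a and Adora2b did not reach it.

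Chemoattractant receptors were likewise uneven. Below Cx3cr1 stood C3ar1, the receptor for complement C3a, at 613, 641 and 576 TPM, Ccrl2, a chemerin-binding receptor, at 314 ± 29.1 TPM, C5ar1, the receptor for C5a, at 279 ± 36.5 TPM, and Cmklr1, the chemerin receptor, at 153 ± 11.1 TPM. Ccr2, the receptor of inflammatory monocytes, was the lowest of 16 of 29 at the minimum, with 2.53, 2.59 and 5.03 TPM in replicates 7, 9 and 11. Its CV was 45.7%. Other G protein-coupled receptors were led by Gpr34, a receptor for lysophosphatidylserine, at 670.0 ± 97.8 TPM and Gpr84, a receptor for medium-chain fatty acids, at 602, 630.2 and 579 TPM. Adgrg1, Adgre1 (the antigen F4/80) and Ptafr had 339 ± 2.28, 301 ± 21.3 and 255 ± 14.2 TPM. Of that list 39 of 62 were at the minimum, down to Gabbr2 at 0.730 ± 0.164 TPM.

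Integrins and uptake receptors included the antigen used for sorting. Itgb5, a beta integrin, led at 1739.5, 1689 and 1929 TPM. Itgam, the CD11b chain on which the cells were sorted, had 1379.9, 1322 and 1471 TPM, and its partner Itgb2 had 1025, 957 and 939 TPM. Of the exon bases of Itgam, 68.7% are shared on the same strand with the model Gm49368, so its level may include fragments of that model. Itga5, Itgb1 and Itga6 had 513 ± 108, 292 ± 8.66 and 160.2 ± 11.1 TPM, and 19 of 26 integrins were at the minimum, with Itga3 lowest at 0.830 ± 0.176 TPM. Engulfment receptors were led by Cxcl16, a scavenger receptor and chemokine, at 590.0, 646 and 419.8 TPM, by Mertk, the receptor for bridged apoptotic cells, at 501, 508 and 522 TPM, and by Lrp1, a receptor for apolipoprotein E, at 372 ± 11.3 TPM. Mertk and its relative Axl, at 115 ± 17.2 TPM, did not overlap in any library, and the family's other member Tyro3 was the lowest at 0.675, 2.77 and 0.568 TPM. Stab1 and Mrc1 had 142 ± 11.4 and 56.7 ± 7.28 TPM. Tyro3 was highest in replicate 9, the library with the most oligodendrocyte marker RNA, whose part in it was not tested.

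Ion channels (29 of 34 at the minimum) had no member at 1000 TPM. Clic1 and Clic4, chloride intracellular channel proteins, had 345 ± 10.8 and 229.6 ± 55.5 TPM. Hvcn1, the proton channel that balances charge during the oxidative burst, had 212, 231 and 204 TPM, and Pacc1, the proton-activated chloride channel, had 176, 187 and 169 TPM. Lrrc8a, a subunit of volume-regulated anion channels that shares 66.2% of its exon bases with Gm28035, had 123 ± 8.01 TPM, and Orai1, the pore of store-operated calcium entry, had 106 ± 12.8 TPM. Kcna2 was lowest at 0.576 ± 0.171 TPM.

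Transcription factors were dominated by inducible genes. Of 151 listed factors, not counting those that define other lineages, 130 were at the minimum, 66 of them at 100 TPM or more and 14 at 1000 or more. They summed to 51626, 47649 and 52461 TPM (mean 50579 ± 2571 TPM), or 6230 ± 237 TPM on the scale of all genes. The inducible AP-1, EGR, KLF and related factors held 68.8 ± 1.89% of this sum, the microglial identity factors 15.7 ± 0.313% and the NF-kappaB and BCL factors 8.54 ± 0.913%. Of the 6 lists in this sum, nuclear receptors held the smallest share, 1.30 ± 0.179%. The 4 leading factors alone, Jun, Junb, Jund and Atf3, held 34.5 ± 1.45%.

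All 35 inducible factors were at the count minimum and 11 of them at 1000 TPM or more. Jun had 5540.2, 5007 and 6349.7 TPM in replicates 7, 9 and 11, and Junb had 4683, 4142 and 5283 TPM. Jund, the third JUN protein, had 3885, 3518 and 3629 TPM. For Jun and Junb the order was the same, with replicate 9 lowest and replicate 11 highest. Fos, the AP-1 partner, had 2948, 2589.5 and 3651 TPM, the widest spread of the 6, with a CV of 21.3%. Atf3, a stress-induced repressor, had 3465 ± 222 TPM, and Egr1, an immediate early zinc finger factor, had 2625 ± 313 TPM. At the other end Klf9, a glucocorticoid target, had 6.11 ± 2.55 TPM. Genes of this kind are known to respond fast to signals in the tissue and to handling of cells, and the part of the isolation in their levels was not tested.

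All 31 identity factors reached the minimum as well. Cebpb and Cebpa, leucine zipper factors of the myeloid lineage, had 1519.8 ± 136 and 941 ± 175 TPM. Spi1, which encodes PU.1, had 515, 544 and 464 TPM. Sall1, the zinc finger factor that separates microglia from other macrophages, had 397, 402 and 469 TPM, and Lmo2, a LIM domain cofactor, had 321 ± 16.2 TPM. Spi1 and Sall1 lay below Jun, Junb and Cebpb in each library. Ikzf2 was the lowest, at 3.61 ± 0.855 TPM. Mef2c, another microglial factor, was among the 10 least variable named nuclear genes at 10 CPM or more, with 406, 405 and 405 CPM.

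NF-kappaB factors and their regulators were all at 100 TPM or more. Nfkbiz, a nuclear IkappaB protein, had 1672, 1581 and 1651 TPM, and Nfkbid, its relative, had 569, 640.4 and 719.9 TPM. The transactivating subunits Rel and Rela had 524 ± 108 TPM and 469 ± 53.4 TPM, and Bcl6, a repressor, was lowest at 128 ± 9.40 TPM. Among interferon regulatory and STAT factors (15 of 16 at the minimum) Irf5 led with 791, 840.1 and 598 TPM, followed by Stat3 at 277 ± 31.2 TPM, Stat6 at 225 ± 16.1 TPM and Irf1 at 206, 180.5 and 269 TPM. Rel and Irf5 were lowest in replicate 11, while Nfkbid and Irf1 were highest there. Stat4, typical of lymphoid cells, was lowest at 1.76 ± 0.430 TPM, and shares 26.7% of its exon bases with Gm28177.

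The list of nuclear receptors, which leaves out inducible ones such as Nr4a1, had a median of 14.3 TPM, and the list of factors of other lineages 4.86 TPM. Nr3c1, the glucocorticoid receptor, had 114, 118 and 119 TPM, Nr1h2, the cholesterol-sensing LXR beta, had 100.4 ± 4.61 TPM, and Nr1d2, a clock component, had 70.8 ± 7.91 TPM. Ppard, Rxrb and Rxra had 57.9 ± 11.6, 53.2 ± 1.79 and 44.8 ± 4.21 TPM. Of 44 nuclear receptors 25 were at the minimum and 19 were not, among them Vdr, Ppara and Hnf4a, and Rorb was the lowest at the minimum with 0.316 ± 0.0680 TPM. Factors that define other lineages reached the minimum in 11 of 34 cases, none above the 11.8 TPM of Foxj1. Next were Sox9 at 8.64 ± 3.71 TPM, Sox2 at 7.82 ± 2.12 TPM, Sox18 at 7.26 ± 5.10 TPM, Sox10 at 6.27 ± 8.24 TPM and Erg at 4.86 ± 3.37 TPM, with Ebf1 last at 2.68 ± 1.90 TPM. Sox10, of oligodendrocytes, had 1.87, 15.8 and 1.15 TPM and Sox18 and Erg, of endothelium, had 2.82, 12.8 and 6.14 TPM and 2.96, 8.75 and 2.87 TPM. All 3 were highest in replicate 9, as the marker sums of those cells were, and the share of those cells in these values was not tested.

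Factors tied to lysosomes and lipids were moderate, and Usf2 and Tfe3 hardly varied between the pools. Usf2, which binds E-boxes, had 172, 172 and 171 TPM. Tfe3, a master factor of lysosomal genes, had 107, 107 and 104 TPM, and Foxo3, a factor of autophagy genes, had 116 ± 5.25 TPM. Mlxipl, the carbohydrate-responsive factor ChREBP, had 116.6 ± 20.4 TPM. Zkscan3, a repressor of autophagy genes, was lowest of the 16 of 17 at the minimum with 15.3 ± 2.01 TPM, and Tfec was below it.

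**Figure D4:**
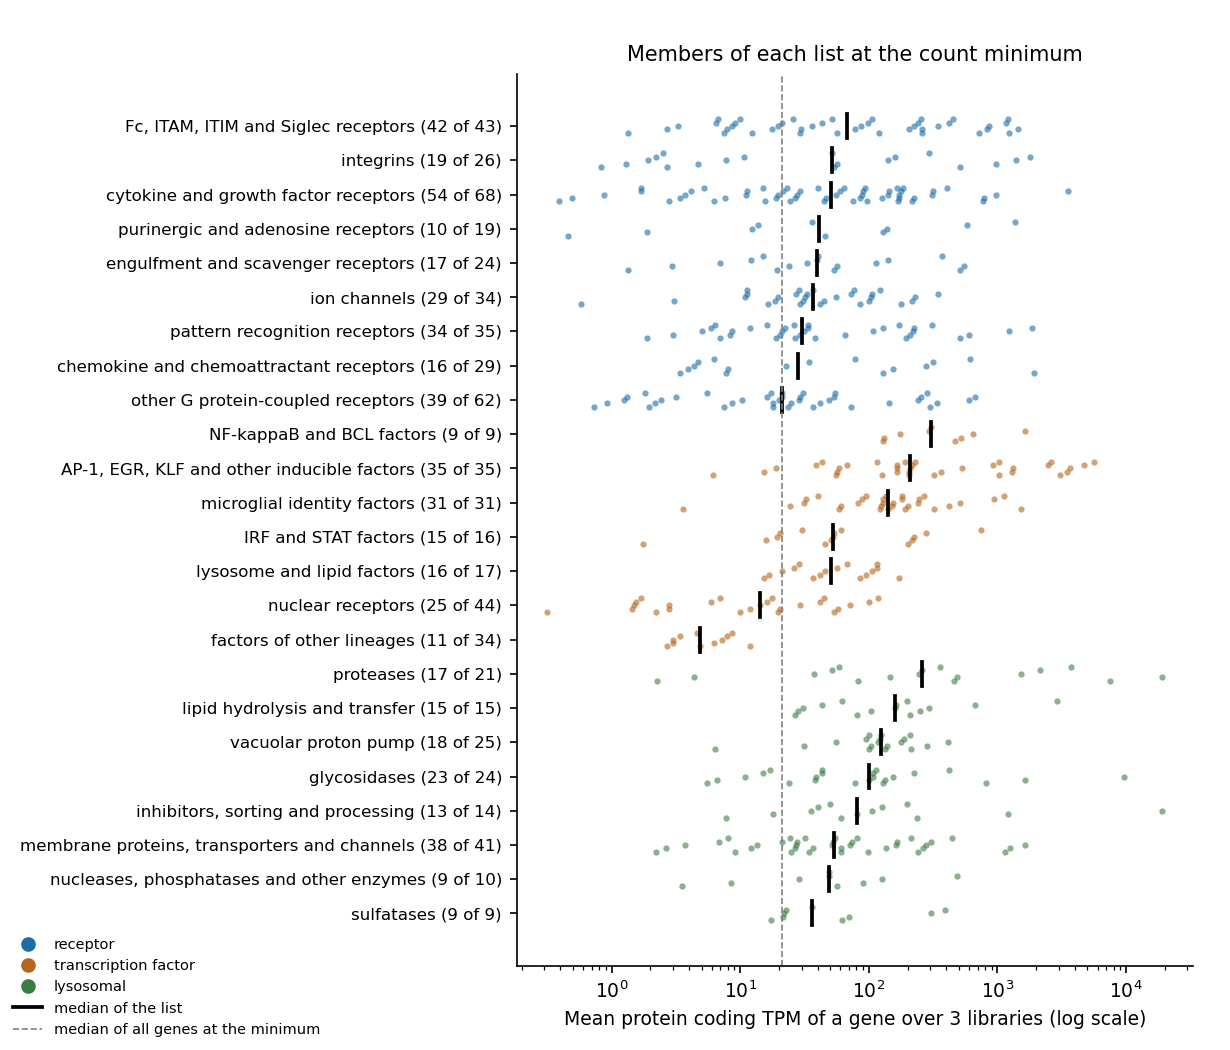
Mean protein coding TPM (horizontal axis, log scale) of every listed receptor, transcription factor and lysosomal gene at the count minimum, with the number at the minimum of those listed in brackets. Each dot is a gene and each bar the median of its list: the NF-kappaB list has the highest median, 303 TPM, and factors of other lineages the lowest, 4.86 TPM, against 21.2 TPM for all genes.

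Lysosomal genes held the largest sum of the 3 classes, and 2 genes, Cst3 and Ctss, made 43.2 ± 1.805% of it. Of 159 listed genes, 142 were at the minimum, 68 of them at 100 TPM or more and 13 at 1000 or more. They had 85904, 83926 and 94525 TPM in replicates 7, 9 and 11 (mean 88118 ± 5636 TPM), which is 8.81% of the protein coding total, and 10846 ± 244 TPM on the scale of all genes. The leading 10 members held 78.0 ± 1.65%. Without scaling by length the class took 41921 ± 3232 CPM. The median member lay at 85.9 TPM, and 51 members were in the first 10% of ranks. Replicate 11 was the highest by CPM for 73 of the 142 members and replicate 7 for 24. Over all genes at 10 CPM or more, replicate 11 was the highest for 40.8% and replicate 7 for 29.1%.

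Proteases made up 40.9 ± 0.524% of the class. After Ctss and Ctsd came Lgmn, with 3585, 3675 and 3882 TPM, Ctsz, a carboxypeptidase, with 2158, 2196 and 2090.4 TPM, and Ctsb, a cysteine protease, with 1493, 1611 and 1507 TPM. Ctsa, the protective protein that stabilises beta-galactosidase and neuraminidase, had 476, 510.4 and 476 TPM. Ctsz, Ctsb and Ctsa had CVs of 1.37%, 2.36% and 1.91%, against 12.1% for Ctss and 12.3% for Ctsd. Napsa was lowest at 2.25 ± 0.433 TPM, and Ctsk, Ctsg, Ctsw and Ctsj, proteases of osteoclasts, granulocytes, lymphocytes and placenta, were below the minimum. Inhibitors, sorting and processing factors added 24.2 ± 1.24%, mostly Cst3. Grn, progranulin, had 1217, 1120.5 and 1289 TPM, M6pr, a mannose 6-phosphate receptor, had 236 ± 24.8 TPM, Cstb, an intracellular cystatin, had 197 ± 35.4 TPM, and Igf2r, the other mannose 6-phosphate receptor, was lowest at 6.33, 11.6 and 5.39 TPM.

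Glycosidases added 15.8 ± 0.536%. Hexa, a lysosomal hexosaminidase chain, had 759, 817 and 888 TPM and was highest in replicate 11. Lyz2, the lysozyme of macrophages, had 1643 ± 109 TPM, and Man2b1 and Man2b2, alpha-mannosidases, had 419 ± 38.4 and 224 ± 12.4 TPM. Hyal2 was the lowest of 23 at the minimum with 5.55 ± 0.438 TPM. Among sulfatases Arsb, which acts on glycosaminoglycans, had 304 ± 7.18 TPM, followed by the sulfatase activator Sumf1 at 69.8 ± 10.7 TPM and Ids at 61.8 ± 3.47 TPM, with Arsk lowest at 17.2 ± 1.87 TPM.

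Lipid handling was led by Psap, the precursor of the saposins, at 2879, 2945 and 2933 TPM. Pld4, a phospholipase D family member with exonuclease activity, had 669 ± 20.8 TPM, Pla2g15, a phospholipase, 295 ± 45.6 TPM, and Asah1, acid ceramidase, 249.8 ± 14.5 TPM. All 15 listed members were at the minimum, and the lowest was Smpdl3a at 26.6 ± 2.16 TPM. Of nucleases, phosphatases and other enzymes, Ifi30, a thiol reductase that opens disulfides of antigens, had 481 ± 68.1 TPM, without a rank as it is not typed protein coding. Acp2, Dnase2a and Rnaset2a had 127 ± 3.74, 89.3 ± 6.55 and 56.3 ± 4.42 TPM, the last with 27.2% of its exon bases shared with Gm49673. Acp5, the osteoclast phosphatase, was lowest at 3.55 ± 1.59 TPM.

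Membrane proteins of the lysosome were led by Laptm5, of blood cell lysosomes, at 1596, 1626 and 1668 TPM, Lamp1 at 1286, 1211 and 1281 TPM and Cd68, the macrophage relative of the LAMP proteins, at 1163, 1199 and 1076 TPM. Slc15a3, a peptide and histidine transporter, varied more, with 442, 545 and 339.6 TPM. Cd164, a sialomucin, had 304 ± 20.4 TPM, and Scarb2, the receptor that carries glucocerebrosidase, had 278 ± 11.98 TPM. Abcb9 was the lowest of 38 of 41 at 2.22 ± 0.744 TPM, and Lamp3, Mcoln2 and Mcoln3 were below the minimum. The vacuolar proton pump, which acidifies the lysosome, had 18 of 25 subunits at the minimum and no dominant one: Atp6v0c, of the membrane ring, had 412 ± 34.6 TPM, Tcirg1 281 ± 34.6 TPM, Atp6ap1 211 ± 8.60 TPM, Atp6v1g1 209 ± 17.5 TPM, Atp6v0d1 189 ± 5.38 TPM and Atp6v0b 177 ± 12.2 TPM. Atp6v1g2, a neuronal subunit, was lowest at 6.34 ± 1.01 TPM, and the subunits below the minimum included the renal Atp6v1b1, Atp6v0a4 and Atp6v1g3.

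The promoters of these genes were read for the core of the CLEAR element, TCACGTGA, the site through which TFEB and TFE3 reach lysosomal genes. It is a palindrome that contains the E-box CACGTG. In RefSeq promoters (GRCm38.p6, 250 bases before to 50 after the start), 18 of 131 promoters of lysosomal genes at the minimum held it (13.7%), from 17 genes, against 1.24% of receptor promoters, 1.88% of transcription factor promoters, 1.804% of the 12198 promoters of protein coding genes at the minimum and 0.974% of all 32851 promoters of the table. The 4 lysosomal genes of highest TPM with a match that lies wholly upstream of the start are shown, with each match in capitals and the strand of the gene.

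Ctsd, chr7:142387874-142387971, minus strand: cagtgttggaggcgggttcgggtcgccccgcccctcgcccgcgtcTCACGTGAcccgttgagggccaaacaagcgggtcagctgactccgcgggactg
Ctsa, chr2:164833715-164833772, plus strand: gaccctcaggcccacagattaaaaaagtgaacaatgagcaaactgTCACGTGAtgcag
Cd164, chr10:41519367-41519464, plus strand: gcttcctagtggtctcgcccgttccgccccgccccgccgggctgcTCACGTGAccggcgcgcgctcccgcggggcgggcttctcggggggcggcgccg
Mfsd1, chr3:67582652-67582749, plus strand: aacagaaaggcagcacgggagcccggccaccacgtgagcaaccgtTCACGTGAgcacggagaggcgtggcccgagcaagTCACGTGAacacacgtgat

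The Ctsd match starts 99 bases before the annotated start, that of Ctsa 13, that of Cd164 88 and the first of Mfsd1 71. Mfsd1, a lysosomal dipeptide transporter, has a level of 136 ± 9.44 TPM and was named for its promoter after its values were seen. Cst3 and Ctss, the highest lysosomal genes, had no such match in this window. Over all protein coding genes at the minimum the share of promoters with the element was 2.26% in the highest of 10 equal groups by level, 2.99% in group 3 and 0.726% in the lowest, group 10, and 0.202% in the promoters of genes with no count. The median number of CG pairs per 100 bases was 7.0, 7.67, 5.0 and 0.667 in the same 4 sets, 5.33 in lysosomal and 2.33 in receptor promoters, and its part in the shares was not tested.

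The 8-letter core of the PU.1 site, GAGGAAGT, which holds the GGAA common to ETS factors, was searched on both strands. It lay in 5.86% of the promoters of group 1, 4.23% of group 2, 2.50% of group 10, 3.54% of those of genes with no count and 3.20% of all promoters. Receptor promoters held it in 22 of 241 cases (9.13%), from 20 genes, lysosomal promoters in 6 of 131 (4.58%) and transcription factor promoters in 3 of 160 (1.88%). The 3 receptor genes of highest level with a match upstream of the start are printed, with the match, on either strand, in capitals.

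Havcr2, chr11:46454878-46454930, plus strand: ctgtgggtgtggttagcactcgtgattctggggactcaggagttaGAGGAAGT
Itgav, chr2:83724343-83724396, plus strand: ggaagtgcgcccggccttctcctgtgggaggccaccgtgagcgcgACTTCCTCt
Aim2, chr1:173420446-173420543, plus strand: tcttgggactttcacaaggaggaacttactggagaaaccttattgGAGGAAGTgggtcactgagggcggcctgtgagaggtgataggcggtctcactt

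These 3 genes were named after their values were seen: Havcr2, the checkpoint receptor TIM-3, had 453 ± 30.9 TPM, Itgav, the alpha V integrin, 142 ± 15.8 TPM, and Aim2, a sensor of cytosolic DNA, 129 ± 17.7 TPM. In Itgav the letters read on the opposite strand. The TATA box, TATAAA on either strand, lay in 10.5% of promoters of group 1, 7.10% of group 10 and 27.8% of those of genes with no count. A match describes letters, not a bound site.

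Of the remaining lists, those of complement, secreted ligands and antigen presentation each had 3 or more members at 1000 TPM or more. Complement genes, 9 of 15 at the minimum, were almost wholly C1q, with C1qc at 3106, 2909.8 and 3254 TPM and C2 lowest at 1.62 ± 0.407 TPM, with 42.8% of its exon bases shared with Gm20547. C1qc lay below C1qa and C1qb in each library, and C6, C7, Cfb, Cfd, Cfi and C1s1 were below the minimum. Of 57 secreted ligands 44 were at the minimum, with 6 at 1000 TPM or more: Ccl3, Apoe, Ccl4, the cytokine Il1a at 3637, 3387 and 3523 TPM, Tnf at 1795, 1741 and 1758 TPM and Il1b at 1198, 953 and 1382 TPM. Their CVs ran from 3.53% for Ccl4 to 21.8% for Il1b, which was lowest in replicate 9. Il10, Il34, Ifng, Csf2, Bdnf and Gdnf did not reach the minimum, and Tgfb3 was the lowest that did, at 2.28 ± 1.33 TPM. Antigen presentation was led by class I genes, with H2-D1 at 1895, 1806 and 1758 TPM and H2-K1 at 1211, 1183 and 1076 TPM after B2m. Cd74, the class II invariant chain, had 903, 1067 and 754 TPM, while Ciita, the class II activator, was the lowest at 2.02 ± 0.125 TPM.

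The pools differed by more than counting error but by little for most genes. Across the 14759 genes, Pearson's r of log2(CPM + 0.5) was 0.978 for replicates 7 and 9, 0.986 for 7 and 11 and 0.979 for 9 and 11, and Spearman's rho was 0.973, 0.983 and 0.977. These are correlations across genes, which are not independent replicates. The CV between the 3 pools had a median of 9.15% over the 8228 genes at 10 CPM or more, where counting alone would give 4.03%. From 5% to 95% of those genes it ran from 2.28% to 25.8%. A CV under 10% was found for 4561 genes (55.4%) and 50% or more for 111 (1.35%). By level, the median CV was 23.1% at 1 to 10 CPM, 9.77% at 10 to 100, 7.28% at 100 to 1000 and 9.02% above, where counting alone gives 13.6%, 4.70%, 1.91% and 0.643%. The common biological CV from edgeR with no covariate was 0.195, and 0.152 without replicate 9.

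Most of the variable genes were highest in 1 pool. Of the 111 genes at a CV of 50% or more, 92 were highest in replicate 9, 14 in replicate 7 and 5 in replicate 11, whereas over all 8228 genes these numbers were 2476, 2391 and 3361. Without replicate 9, 35 of 8142 genes had a CV of 50% or more, against 143 without replicate 7 and 149 without replicate 11. Among named nuclear genes at 10 CPM or more, the 10 largest CVs were all of genes highest in replicate 9, among them Cntn2, Enpp2, Tubb4a, Mal, Ptprd, Nfasc, Gpm6b, Aplp1 and Car2. Mal encodes a myelin protein. Cntn2, an axonal adhesion protein, had 1.67, 27.4 and 2.65 CPM, Enpp2, autotaxin, 3.02, 34.2 and 2.92 CPM, and Mal 3.66, 45.3 and 5.83 CPM. In each of these, replicate 9 lay far above both other pools. The oligodendrocyte marker sum moved with these genes, and the part of such cells was not tested.

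Among named nuclear genes at 10 CPM or more, the 10 smallest CVs, those of Abcf1, Mef2c, Pfn1, Ptp4a2, Ube2z, Gcnt1, Tmed7, Ivns1abp, Gnl1 and Msn, were at most 0.280% and below what counting alone would give for each gene. Abcf1, a ribosome-associated ATPase, had 124, 124 and 124 CPM, Pfn1, the actin binding protein profilin, 216, 216 and 216 CPM, and Msn, the membrane linker moesin, 857, 859.8 and 855 CPM. With 3 libraries such values mark closeness of these pools and no lower limit. Over the listed classes, at any CPM, lysosomal genes had CVs under 10% in 77 of 142 cases and 50% or more in none. Transcription factors, without those of other lineages, had 46 of 130 and 1, Epas1, and receptors 111 of 260 and 14, among them Flt1, Pdgfrb, Tgfbr3 and Tyro3. These 5 genes were named after their values were seen. Over all genes at 10 CPM or more, 55.4% had a CV under 10% and 1.35% a CV of 50% or more. No such share was taken over genes at any CPM. Below 10 TPM lay 64 of the receptors, 14 of the transcription factors and 14 of the lysosomal genes. The part of level in these class counts was not tested.

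**Figure D5:**
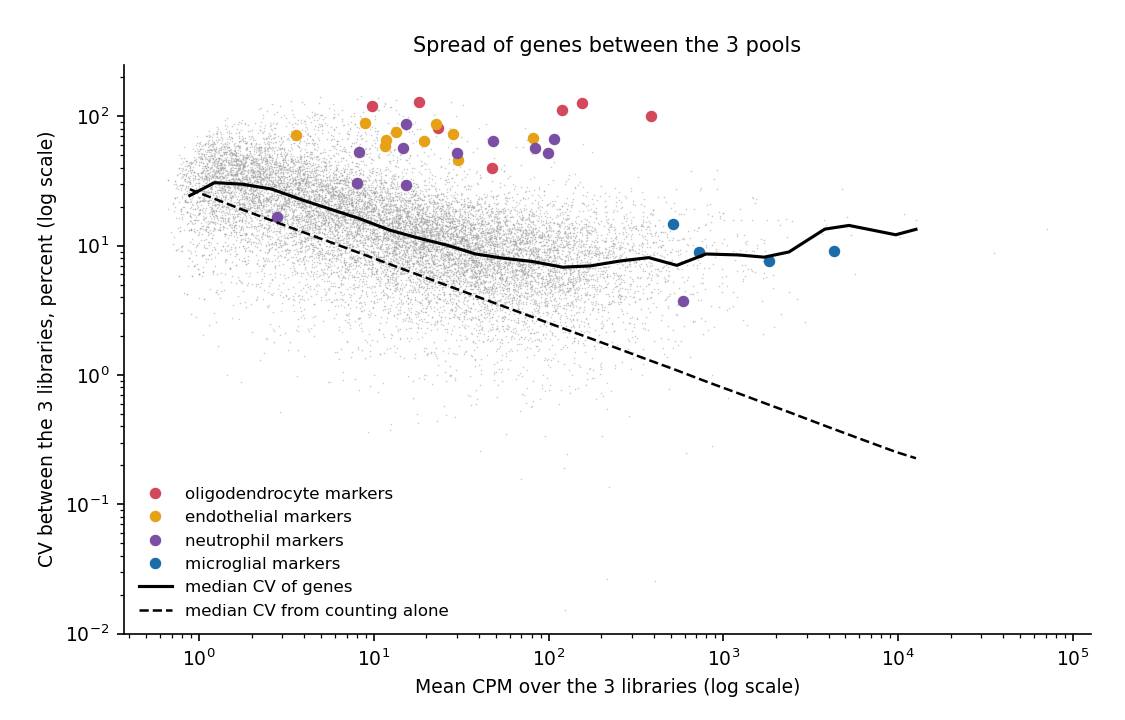
CV between the 3 pools in percent (vertical axis, log scale) against mean CPM (horizontal axis, log scale) for the 14759 genes, with the median CV (solid line) and the value from counting alone (dashed line). Oligodendrocyte and endothelial markers lie above the solid line, mostly at 50% or more, neutrophil markers spread from the dashed line upwards, and the 4 microglial markers lie between 7.59% and 14.8%.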

How the data were processed

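RNA of CD11b bead-selected spinal cord microglia was sequenced after ribosomal RNA depletion with a stranded total RNA kit, per the labels' protocols. The authors deposited raw counts per gene from featureCounts 1.6.1 on GENCODE release M25, counted by fragment, with strand setting 2 and with a fragment counted for every gene it overlaps, per the file headers. Trim Galore 0.4.1, FastQC, TopHat2 and DESeq2 are named in the submitters' processing notes. The names of the alignments call those of replicates 7 and 9 combined and that of replicate 11 not, and what was combined is not given in the sources used here. The deposited counts were used unchanged, and 6 further sample columns of the table were not used.

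CPM values used library totals scaled by TMM over the 3 libraries (edgeR 4.0.16, R 4.3.3). TPM used the deposited gene lengths. Symbols and types came from GENCODE release M21 (GRCm38), which matched 55141 of 55401 genes. Exon overlaps came from the exon positions deposited with the counts. Other steps used Python 3.11.15, numpy 2.4.6, pandas 2.3.3 and scipy 1.17.1. The spread script was tested on simulated data. Promoters came from RefSeq (GRCm38.p6), with entries for 9513 of the 12108 protein coding genes at the minimum.

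The members, the 44 gene lists (889 genes, 39 in more than 1 list) and the rules were chosen with earlier results of these data known. Named by rule were the 4 markers, the 20 highest nuclear protein coding genes, the 5 highest of all genes by TPM and by CPM and the 3 highest mitochondrial genes. Each list gave its 4 highest members (6 where it held over 20, 2 for cell types) and its lowest at the minimum, and the spread gave the 10 largest and 10 smallest CVs. Some genes that meet these rules are not reported here. The alternatives were other count minimums, scalings and filters and leaving out each library. Counting limits and CVs from counting cover counting error only. The libraries are separate pools, so the SD holds differences between animals as well as handling.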

Additional observations from a re-analysis of the deposited data

How the results depend on the processing

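With 3 pools the SDs are imprecise, and totals between 12553570 and 22854628 counts limit genes near the minimum, where counting alone gives a median CV of 13.6% at 1 to 10 CPM. Without a minimum, 27255 genes had a count in any library, against 14759 at 10 counts. Leaving out 1 library gave 14933 to 15823 genes. The share of the 100 most counted genes, 32.3 ± 1.51%, was 29.3% without mitochondrial genes, 21.4% over protein coding genes and 27.2% without Gm23935, and 31.4% to 32.9% with 1 library left out. The median CV between pools, 9.15%, was 13.3% over all genes at the minimum and 7.36% at 100 CPM or more. It was 7.30% without replicate 9 and 6.26% without replicate 11, and 9.14% without replicate 7. A median CV from fewer libraries is not directly comparable with the one from all 3, so these values compare with each other only.

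The summed TPM over all genes of the lysosomal, receptor and transcription factor lists, 10846, 5724 and 6230, was 88118, 46354.5 and 50579 over protein coding genes. Over genes of 500 bases or longer the sums were 72971, 38379 and 41898, and as CPM not scaled by length 41921, 38887 and 37997. With overlapping models left out only of the genes that share the fixed sum, they were 93198, 49023 and 53493. Listed genes that overlap a neighbour, such as Ctsd, stayed in these sums. Within a library this scaling multiplies all sums by the same factor and cannot alter their order. The order of the classes without overlapping members was not tested. The last scaling and the share without Gm23935 were chosen after seeing the data. The lysosomal sum, as listed, was the largest on each of these 5 scales, while the mean receptor sum exceeded that of transcription factors in CPM only. In replicate 7 that order was reversed, with 38793 CPM for receptors and 38913 CPM for transcription factors. In CPM the first place of the lysosomal sum rests on Cst3, whose product is secreted. Cst3 had 5084 ± 839 CPM, more than the lead of the lysosomal sum over either other class. By construction, the TPM scales differ in which genes share the fixed sum, and the CPM scale in leaving out the division by length. With 1 library left out the sums ran from 10706 to 10934, 5500 to 5956 and 6139 to 6364. No paired analysis was possible because a single group was described and its replicate numbers are shared with no other group.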

Other observations

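Large gene families outside the lists differed widely in how many members were detected. Of 83 Rpl and Rps genes, which encode ribosomal proteins, 80 were at the count minimum, and they summed to 53451 ± 1673 protein coding TPM (SD, n = 3). Of 394 Zfp genes, 318 were at the minimum at a median of 8.49 TPM, and their highest member was Zfp36, which encodes an mRNA decay factor and not a zinc finger transcription factor, at 1794 ± 140.5 TPM. Zfp36l1 and Zfp36l2, of the same decay factor family, followed at 629.7 ± 22.7 and 490.3 ± 56.4 TPM.

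Olfactory receptor genes were mostly undetected: 960 of 1104 Olfr genes had no count and 15 were at the minimum. The highest, Olfr111, had 20.1, 22.0 and 17.6 TPM in replicates 7, 9 and 11, near the median of 21.2 TPM over all protein coding genes at the minimum. Of 39 Hox genes, which mark position along the body axis, 2 were at the minimum: Hoxa7 with 3.70, 4.70 and 3.10 TPM and Hoxb4 with 2.82, 3.08 and 1.61 TPM. Both were highest in replicate 9, the pool with the highest oligodendrocyte and endothelial marker sums, whose part was not tested.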
